A study of Mus musculus with 6 samples.

Results

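The genes described here are the regulators and classical targets of NRF2, the transcription factor that drives the oxidative stress response. The set was given as a list of names, with no value in its rule but with earlier results of these data known, and holds 10 genes: Nfe2l2 and Keap1 as regulators, Gclc, Gclm and Slc7a11 for glutathione, Txnrd1 and Srxn1 for the repair of oxidised thiols, Nqo1 and Hmox1 for the handling of quinones and heme, and G6pdx for NADPH. All 10 were found by symbol among the 34745 genes counted in each library, and all 10 were among the 14417 genes with enough counts to be tested.

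Primary hepatocytes were taken from 12-week-old male mice with liver fibrosis, and their RNA was sequenced in 2 groups of 3 libraries, numbered 1, 2 and 4 in each group. Every mouse carried floxed Foxa2 alleles (FOXA2flox/flox). FOXA2f/f mice had received the virus AAV8-TBG-Control and FOXA2H-KO mice AAV8-TBG-Cre, in which the hepatocyte-specific thyroid-binding globulin promoter drives Cre, so that cells other than hepatocytes kept Foxa2. CCl4 dosing began 2 weeks after the virus and lasted 4 weeks, with 2 injections of 0.25 ml/kg each week. The cells were collected 3 days after dosing ended. Both groups had virus and CCl4, and no library came from a mouse without CCl4, so the values below compare FOXA2H-KO with FOXA2f/f in injured liver and cannot show what CCl4 itself did to a gene. Nothing in the labels ties each library to a separate mouse, and the p-values measure only the spread between these libraries.

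NRF2, the product of Nfe2l2, is held in the cytoplasm by KEAP1, which presents it to a CUL3 ubiquitin ligase for degradation. Electrophiles and peroxides modify cysteines of KEAP1, NRF2 then escapes degradation, enters the nucleus, pairs with a small MAF protein and binds antioxidant response elements at its target genes. Because this control acts on the protein, the Nfe2l2 transcript need not follow NRF2 activity, and the targets are the usual readout. In hepatocytes CCl4 is turned by CYP2E1 into a radical that starts lipid peroxidation, and glutathione, thioredoxin and their NADPH-dependent reductases are part of the defence against it.

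The core of the antioxidant response element, the motif that NRF2 binds, was looked for in the promoter windows of RefSeq on GRCm38.p6, which run from 250 bases before to 50 bases after a transcription start. The core was searched as TGACNNNGC, and as its reverse complement GCNNNGTCA, in which N is any base. A window was given for 8 of the 10 genes (not for Hmox1 and Gclc), and 5 of these 8 genes held a match. Counted by window, 5 of their 10 windows (50%) did, beside 14.4% of 13821 windows of the genes tested and 12.4% of all 32851 windows. A match of these letters is a description of the window, not a measured binding site, and enhancers farther away were not searched. The matches that lie before a start site are given below in the direction of the gene, with the core in capitals and 10 bases on each side.
Nfe2l2, chr2:75704885-75704913, minus strand, position −240 from the start: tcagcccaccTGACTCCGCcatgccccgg
Gclm, chr3:122245413-122245441, plus strand, position −134: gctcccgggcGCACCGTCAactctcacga
Txnrd1, chr10:82859104-82859132, plus strand, position −92 from 1 of its 3 start sites: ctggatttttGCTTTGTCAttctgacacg
G6pdx, chrX:74428919-74428947, minus strand, position −57: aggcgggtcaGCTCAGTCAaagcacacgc
The match of Srxn1 began 28 bases after its start, and the windows of Keap1, Nqo1 and Slc7a11 held none.

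The libraries held between 20983455 and 28327765 counts on genes. Foxa2, which checks the labels, was at 18.99, 13.5 and 16.4 CPM (counts scaled to a common library size with edgeR's TMM factors, which also correct for a few genes taking up much of a library) in FOXA2f/f replicates 1, 2 and 4 and at 1.03, 0.762 and 1.62 CPM in FOXA2H-KO, a log2 fold change of −3.85 ± 0.31 (SE, adjusted p = 0.0313, edgeR's quasi-likelihood test). The hepatocyte markers summed to between 117000 and 168600 CPM in the 6 libraries, led by Alb, and no marker of any other cell type list was at 0 in all libraries. FOXA2f/f replicate 2 stood apart: it was the highest library for 29.6% and the lowest for 29.2% of all genes tested. Cyp2e1, which activates CCl4, was also lowest there, at 290.9 CPM beside 1267 and 1023 CPM in the other FOXA2f/f libraries and 1685, 1415 and 1159 CPM in FOXA2H-KO (log2 fold change 0.72 ± 0.48, adjusted p = 0.983, and 0.31 without FOXA2f/f replicate 2).

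None of the 10 genes passed the threshold between FOXA2H-KO and FOXA2f/f hepatocytes. In edgeR's quasi-likelihood test, 0 of 10 had an adjusted p under 0.05 with a change of at least 2-fold, beside 0.00694% of all genes tested, which was Foxa2 alone. At an unadjusted p under 0.05 the count was also 0 of 10, beside 5.17% of all genes tested. DESeq2 and edgeR's exact test, which called 73 and 64 genes, likewise called 0 of the 10. The fitted log2 fold changes were between −0.36 for Txnrd1 and 0.27 for Nqo1, 3 above 0 and 7 below, with a median of −0.09 where the median of all genes tested was −0.01. For 8 of the 10 genes the 95% interval of the difference lay inside 2-fold in either direction, and for Hmox1 and Slc7a11 it reached beyond. In such bulk samples, fewer cells of a type and less RNA per cell cannot be told apart.

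**Figure D1:**
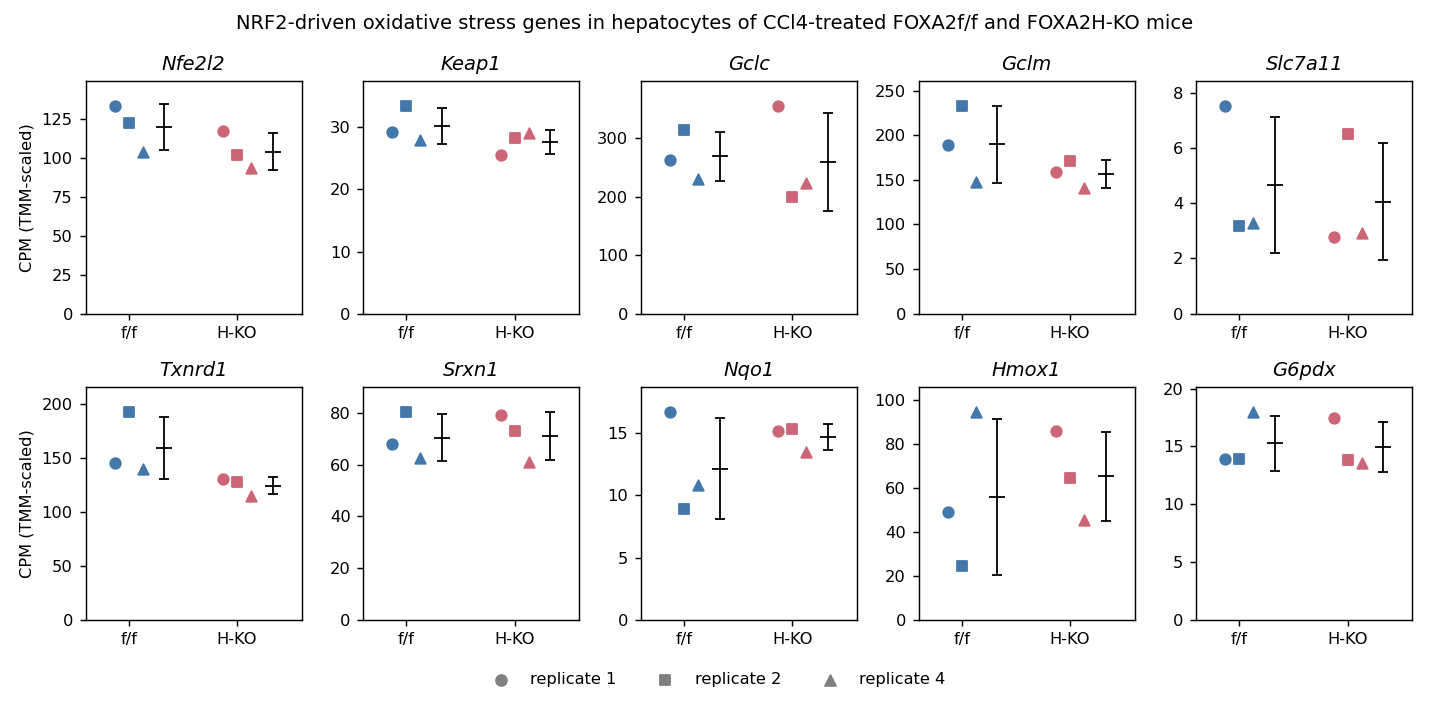
TMM-scaled CPM (linear axis from 0) of the 10 NRF2-driven genes in each of 3 FOXA2f/f (blue) and 3 FOXA2H-KO (red) libraries, with the mean and SD of each group as a black bar to the right of its points and the replicate number as the symbol. The groups overlap for 9 of the genes, and for Txnrd1 the FOXA2H-KO libraries, at 115.1 to 130.6 CPM, lie below the FOXA2f/f libraries, at 140.2 to 192.6 CPM.

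The regulators differed little between the groups. Nfe2l2 (ENSMUSG00000015839, chr2:75675513-75704641, minus strand), which encodes NRF2, was at 133.2, 122.1 and 103.7 CPM in FOXA2f/f replicates 1, 2 and 4 and at 116.9, 101.5 and 93.4 CPM in FOXA2H-KO. FOXA2H-KO replicate 1 lay between the FOXA2f/f values and FOXA2H-KO replicate 4 was the lowest of all. The means were 119.7 ± 14.9 and 103.9 ± 12.0 CPM (SD, n = 3 each), and the log2 fold change of −0.20 ± 0.15 (adjusted p = 0.983) had a 95% interval of 0.680- to 1.11-fold.

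Keap1 (ENSMUSG00000003308, chr9:21229730-21239361, minus strand), whose product holds NRF2 back, was at 29.2, 33.5 and 27.9 CPM in FOXA2f/f and at 25.5, 28.3 and 29.1 CPM in FOXA2H-KO. The highest value was that of FOXA2f/f replicate 2 and the lowest that of FOXA2H-KO replicate 1, with the others mixed between the groups. The log2 fold change was −0.13 ± 0.13 (adjusted p = 0.983), with a 95% interval of 0.743- to 1.13-fold, the narrowest of the 10 genes on the log scale. Of its exonic bases, 10.9% overlap the annotated transcript Gm16754, which held at most 21 counts in a library. On FPKM, the counts divided by gene length and total count, the ratio of Nfe2l2 to Keap1 was 9.10, 7.30 and 7.43 in FOXA2f/f and 9.15, 7.16 and 6.41 in FOXA2H-KO (exact two-sided permutation p = 0.6), so that the balance of activator to inhibitor transcript was not distinguishable between the groups.

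The glutathione genes showed library differences as large within a group as between groups. Gclc (ENSMUSG00000032350, chr9:77754535-77794485, plus strand) encodes the catalytic subunit of glutamate-cysteine ligase, the rate-limiting enzyme of glutathione synthesis. It was at 262.5, 313.4 and 230.2 CPM in FOXA2f/f and at 355.0, 199.4 and 223.4 CPM in FOXA2H-KO, so that the highest and the lowest of the 6 libraries were both FOXA2H-KO. The means were 268.7 ± 41.9 and 259.3 ± 83.8 CPM, with a log2 fold change of −0.05 ± 0.25 (adjusted p = 0.995, 95% interval 0.650- to 1.43-fold).

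Gclm (ENSMUSG00000028124, chr3:122245557-122270732, plus strand) encodes the modifier subunit that raises the affinity of the same ligase for glutamate. It was at 188.7, 232.9 and 147.5 CPM in FOXA2f/f and at 158.6, 171.5 and 140.4 CPM in FOXA2H-KO. FOXA2f/f replicates 1 and 2 were above all FOXA2H-KO libraries, whereas FOXA2f/f replicate 4 was among them. The log2 fold change was −0.27 ± 0.19 (adjusted p = 0.983, 95% interval 0.607- to 1.13-fold). It was −0.0988 without FOXA2f/f replicate 2 (unadjusted p = 0.568) and −0.43 without FOXA2f/f replicate 4 (unadjusted p = 0.0362). A share of 2.44% of its 100-base stretches also occurs in Ppia and copies of it, and how reads there were counted is not given. Of its exonic bases, 4.71% overlap Gm17494 and Gm6061, which held at most 28 counts in a library.

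The FPKM ratio of the catalytic to the modifier subunit was 3.36, 3.25 and 3.78 in FOXA2f/f and 5.42, 2.81 and 3.85 in FOXA2H-KO (exact two-sided permutation p = 0.7). FOXA2H-KO replicate 1 had the highest ratio and FOXA2H-KO replicate 2 the lowest, with an SD of 1.31 in FOXA2H-KO and 0.275 in FOXA2f/f. Within FOXA2H-KO the highest-to-lowest ratio in CPM was 1.78 for Gclc and 1.22 for Gclm.

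Slc7a11 (ENSMUSG00000027737, chr3:49892526-50443614, minus strand) encodes xCT, the cystine/glutamate antiporter that brings in cystine for glutathione. It was scarcely expressed, with 175, 58 and 103 counts in FOXA2f/f and 75, 162 and 63 counts in FOXA2H-KO, or 7.52, 3.18 and 3.27 CPM and 2.76, 6.50 and 2.91 CPM. In each group 1 library was over 2 times the others, FOXA2f/f replicate 1 and FOXA2H-KO replicate 2. The log2 fold change of −0.20 ± 0.47 (adjusted p = 0.992) had a 95% interval of 0.411- to 1.85-fold, and at these counts a 2-fold lower level was not distinguishable from no difference.

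The 2 thiol repair genes gave different pictures. Txnrd1 (ENSMUSG00000020250, chr10:82833951-82897712, plus strand) encodes cytosolic thioredoxin reductase, the selenoenzyme that returns thioredoxin to its reduced form with NADPH. It was at 145.6, 192.6 and 140.2 CPM in FOXA2f/f and at 130.6, 127.9 and 115.1 CPM in FOXA2H-KO, and each FOXA2H-KO library was below each FOXA2f/f library. It was the only one of the 10 genes without overlap between the groups, where 10.5% of all genes tested (1514, of which 859 were lower in FOXA2H-KO) had none.

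The means of Txnrd1 were 159.4 ± 28.8 and 124.5 ± 8.26 CPM, with a log2 fold change of −0.36 ± 0.16 (unadjusted p = 0.0612, adjusted p = 0.941, 95% interval 0.601- to 1.02-fold). The exact two-sided permutation p was 0.1, the smallest that 3 against 3 libraries allow. Without FOXA2f/f replicate 2 the log2 fold change was −0.20 (unadjusted p = 0.166). The separation depended on the scaling: on the deposited FPKM, scaled by total count alone, Txnrd1 was at 38.8, 49.0 and 45.6 in FOXA2f/f and at 42.9, 38.1 and 33.4 in FOXA2H-KO, with overlap.

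Srxn1 (ENSMUSG00000032802, chr2:152105516-152111376, plus strand) encodes sulfiredoxin, which reactivates overoxidised peroxiredoxins. It was at 68.0, 80.3 and 62.7 CPM in FOXA2f/f and at 79.3, 72.8 and 61.1 CPM in FOXA2H-KO, with interleaved groups. The group means of 70.3 ± 9.02 and 71.1 ± 9.18 CPM differed by less than either SD (log2 fold change 0.02 ± 0.15, adjusted p = 0.998, 95% interval 0.791- to 1.29-fold).

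**Figure D2:**
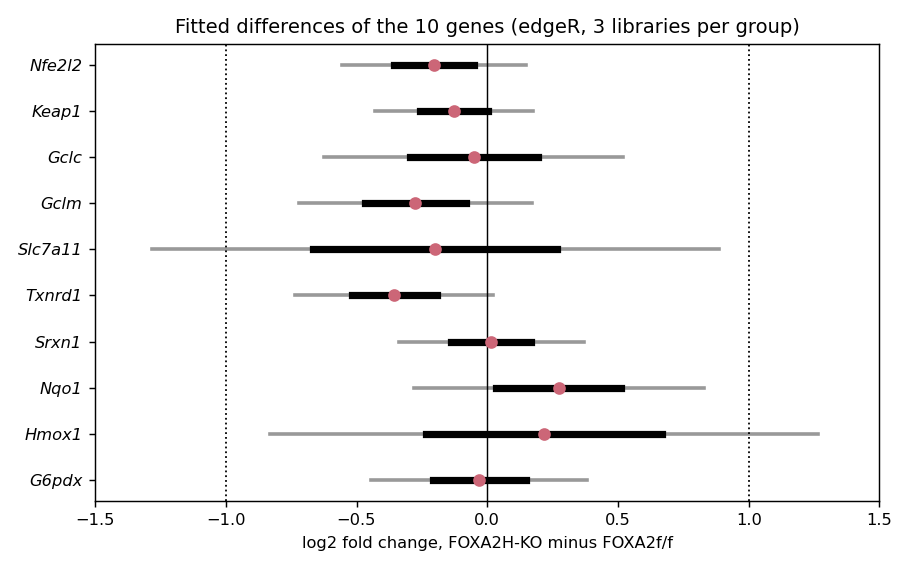
Fitted log2 fold change (FOXA2H-KO minus FOXA2f/f) of each gene from edgeR's quasi-likelihood fit, with ± 1 SE as a thick bar and the 95% interval as a thin bar. Dotted lines mark 2-fold in either direction, which the intervals of Slc7a11 and Hmox1 alone cross, and every interval includes 0.

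Nqo1 and Hmox1, the most widely used NRF2 reporters, had fitted differences above 0 that did not pass the test. Nqo1 (ENSMUSG00000003849, chr8:107388225-107403206, minus strand) encodes a quinone reductase that keeps quinones from redox cycling. It was at 16.7, 8.88 and 10.8 CPM in FOXA2f/f and at 15.2, 15.3 and 13.5 CPM in FOXA2H-KO. The FOXA2H-KO libraries sat close together, whereas FOXA2f/f replicate 1 was above all of them and replicates 2 and 4 below. The log2 fold change was 0.27 ± 0.24 (adjusted p = 0.983, 95% interval 0.823- to 1.78-fold), and it rested on single FOXA2f/f libraries: it was 0.58 without replicate 1 (unadjusted p = 0.0195) and 0.0983 without replicate 2 (unadjusted p = 0.654).

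Hmox1 (ENSMUSG00000005413, chr8:75093621-75100589, plus strand) encodes heme oxygenase 1, which opens heme to biliverdin, iron and carbon monoxide. It was at 49.0, 24.6 and 94.5 CPM in FOXA2f/f and at 86.1, 64.3 and 45.4 CPM in FOXA2H-KO. The FOXA2f/f libraries enclosed all FOXA2H-KO libraries, with a highest-to-lowest ratio of 3.84 within FOXA2f/f and 1.90 within FOXA2H-KO, the widest range within FOXA2f/f of the 10 genes. The log2 fold change was 0.22 ± 0.45 (adjusted p = 0.991, 95% interval 0.562- to 2.40-fold). Leaving out 1 library moved it from −0.14 (without FOXA2f/f replicate 2) to 0.82 (without FOXA2f/f replicate 4, unadjusted p = 0.0492).

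Besides hepatocytes, macrophages that take up red cells express Hmox1. The 12 macrophage markers summed to 1368, 643.9 and 2991 CPM in FOXA2f/f and to 2281, 2081 and 1415 CPM in FOXA2H-KO. FOXA2f/f replicate 4 was highest and replicate 2 lowest for both the marker sum and Hmox1, and the 6 libraries stood in the same order for both except that FOXA2f/f replicate 1 and FOXA2H-KO replicate 4, with neighbouring values, changed places. Cd5l, the most abundant macrophage marker, was at 383.9, 149.2 and 733.1 CPM in FOXA2f/f and at 496.7, 507.8 and 305.1 CPM in FOXA2H-KO. Nqo1 did not have this order, since it was highest in FOXA2f/f replicate 1. This order was not particular to macrophages. The stellate cell and endothelial marker sums were also highest in FOXA2f/f replicate 4 (2781 and 1096 CPM) and lowest in replicate 2 (1084 and 311.8 CPM). The lymphocyte sum, at only 1.43 to 6.74 CPM, had the full order of Hmox1. The cholangiocyte and neutrophil sums were lowest in FOXA2f/f replicate 2 as well, but highest in other libraries. The erythroid sum, led by Alas2, was instead highest in FOXA2f/f replicate 2 (86.03 CPM), although the median deviation of its tested genes was −0.71 (log2) there. It was at 46.52 and 53.55 CPM in FOXA2f/f replicates 1 and 4 and between 29.55 and 39.06 CPM in FOXA2H-KO. The part of RNA from macrophages or from these other cells in the Hmox1 values was not tested.

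**Figure D3:**
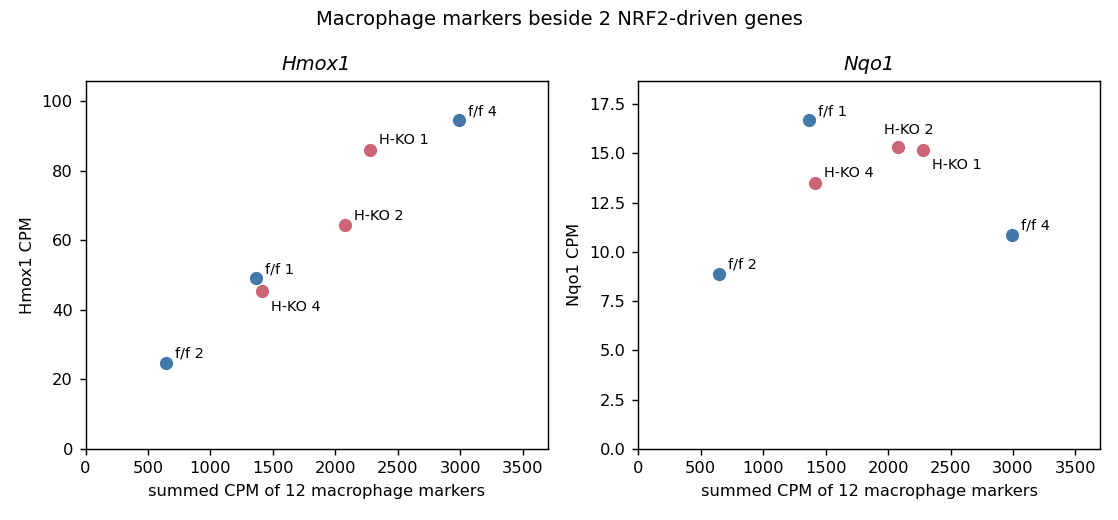
CPM of Hmox1 (left) and Nqo1 (right) against the summed CPM of 12 macrophage markers in each library, on linear axes from 0, with FOXA2f/f in blue and FOXA2H-KO in red. For Hmox1 the points run from 24.6 CPM at a marker sum of 643.9 to 94.5 CPM at 2991, with both groups along the way, and for Nqo1 these 2 libraries are the lowest pair.

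G6pdx (ENSMUSG00000031400, chrX:74409483-74429194, minus strand) encodes glucose-6-phosphate dehydrogenase, the entry step of the pentose phosphate pathway and a source of NADPH. It was at 13.9, 13.9 and 17.96 CPM in FOXA2f/f and at 17.4, 13.8 and 13.6 CPM in FOXA2H-KO. In each group 1 library was above the others, FOXA2f/f replicate 4 and FOXA2H-KO replicate 1, and the remaining 4 were nearly equal. The log2 fold change was −0.03 ± 0.18 (adjusted p = 0.997, 95% interval 0.735- to 1.30-fold). Its retrogene copy G6pd2 had 0 counts in all 6 libraries. A share of 13.6% of the exonic bases of G6pdx overlaps Ikbkg on the opposite strand, so that with unstranded counting the reads there could not be told apart. Ikbkg held up to 1791 counts in a library, where G6pdx held between 253 and 565.

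The level of the genes relative to each other was compared on FPKM, which is per length. Gclc was the most abundant, with a mean over the 6 libraries of 77.4 FPKM, above 97.1% of the genes tested. Txnrd1 (41.3 FPKM), Nfe2l2 (28.5), Hmox1 (22.8), Gclm (20.7) and Srxn1 (19.5) followed, then Nqo1 (8.69), G6pdx (3.96), Keap1 (3.68) and Slc7a11 (0.274, above 10.7% of the genes tested).

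Some neighbours in this order changed places between libraries. Hmox1, with a range of 7.73 to 37.9 FPKM, spanned those of Gclm and Srxn1 and was above them in some libraries only. G6pdx was likewise above Keap1 in some libraries only. Txnrd1 was above Nfe2l2 within every library, although its lowest value, 33.4 FPKM, was no higher than the highest of Nfe2l2, at 33.5. Nqo1 was also above G6pdx within every library, with overlapping ranges. Gclc was above every other gene and Slc7a11 below every other gene in all 6 libraries. The order also rests on the gene lengths behind the deposited values. With exonic lengths of GENCODE M21, 7086 bases instead of 3417 for Txnrd1 and 1751 instead of 2769 for Hmox1, Txnrd1 moved from place 2 to place 6 (19.9) and Hmox1 from place 4 to place 2 (36.0), and Gclc stayed first and Slc7a11 last.

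The libraries were also compared across the genes. FOXA2H-KO replicate 4 was the lowest of the 6 for 5 of the 10 genes, where it was the lowest for 13.04% of all genes tested. It was among the lowest 2 for 8 of the 10, a count with no share over all genes beside it. FOXA2f/f replicate 2 was the highest for 4 genes (Keap1, Gclm, Txnrd1 and Srxn1) and the lowest for 2 (Nqo1 and Hmox1). The median deviation of the 10 genes from their own mean over the libraries was 0.04, 0.16 and −0.13 (log2) in FOXA2f/f and 0.12, −0.01 and −0.23 in FOXA2H-KO, so that the libraries of both groups lay on both sides of 0. Scaled by library size alone, FOXA2H-KO replicate 4 was the lowest for 4 genes (13.35% of all genes tested) and among the lowest 2 for 6. With that scaling FOXA2f/f replicate 2 was also the lowest for 4 genes, and for 43.19% of all genes tested. Without FOXA2f/f replicate 2, the log2 fold changes of the genes not yet given that way were −0.19 for Nfe2l2, −0.0455 for Keap1, 0.0745 for Gclc, −0.40 for Slc7a11, 0.12 for Srxn1 and −0.0923 for G6pdx.

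**Figure D4:**
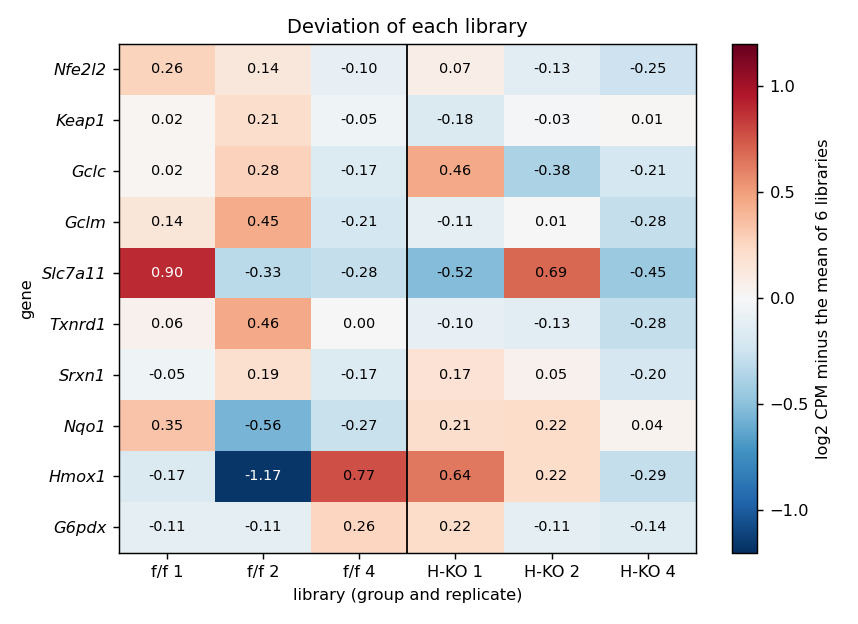
Difference of each library's log2 CPM from the mean of the 6 libraries, for each gene (rows) and library (columns, FOXA2f/f left and FOXA2H-KO right of the line), with red above and blue below the mean and the value written in the cell. The largest deviations are those of Hmox1 in FOXA2f/f replicate 2 (−1.17) and Slc7a11 in FOXA2f/f replicate 1 (0.90), and FOXA2H-KO replicate 4 is blue for 8 genes.

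The remaining parts of the pathway were read in the same fit, by lists that include the genes above. Without those 10, the lists held 67 tested genes, of which 0 were called. At an unadjusted p under 0.05 there were 7 (10.4%), 6 lower and 1 higher in FOXA2H-KO, beside 5.17% of all genes tested. Of the 67 genes, 8 were lower and 1 higher in FOXA2H-KO without overlap, where 10.5% of all genes tested (859 lower and 655 higher) did not overlap. The genes named below were picked by the smallest p of their list, so no overlap is more frequent among them. Their fitted differences were below 0 for 52 and above 0 for 15, with a median of −0.17, where 7525 of all 14417 genes were below 0 and their median was −0.01. Scaling by library size alone moved all genes up, to 4657 below 0 and a median of 0.10, and the 67 genes with them, to 40 below 0 and a median of −0.04. Without FOXA2f/f replicate 2, in contrast, the median of all genes stayed at −0.01, and that of the 67 genes was −0.04, with 43 below 0 and 24 above. Without FOXA2f/f replicate 4 the median of the 67 genes was −0.26. There 14 of them (20.9%) had an unadjusted p under 0.05, beside 16.6% of all genes. Leaving out any other single library gave a median between −0.24 and −0.12. The 10 hepatocyte markers also leaned down, with 8 below 0, 2 above and a median of −0.12. Their median was −0.0052 without FOXA2f/f replicate 2, −0.24 without FOXA2f/f replicate 4 and 0.0227 with library size alone. In contrast, 9 of the 10 pericentral hepatocyte markers lay above 0 (median 0.42), as did 10 of 12 macrophage and 9 of 10 stellate cell markers. Whether the lean of the 67 genes is particular to the pathway was not tested.

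Of the 13 regulators of NRF2, which include its small MAF partners, the repressor Bach1 and the ligases that degrade it, 6 lay above 0 and 7 below, with a median of −0.03, and 1 had an unadjusted p under 0.05. That gene was Syvn1, which encodes HRD1, an endoplasmic reticulum ubiquitin ligase that can also degrade NRF2. It was at 59.2, 83.6 and 83.5 CPM in FOXA2f/f and at 53.2, 56.7 and 40.4 CPM in FOXA2H-KO, without overlap (log2 fold change −0.59 ± 0.19, unadjusted p = 0.0155, adjusted p = 0.811). Btrc, of a further NRF2 ligase, had a log2 fold change of −0.35 (unadjusted p = 0.0542), and Gsk3b, the kinase that marks NRF2 for it, of 0.23 (unadjusted p = 0.0927), both without overlap.

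For glutathione synthesis and recycling, 9 of 11 genes were tested (not Ggt1 and Gpx2), 2 above 0 and 7 below, with a median of −0.11. The median was −0.0072 without FOXA2f/f replicate 2, −0.18 without FOXA2f/f replicate 4, and 0.0137 with library size alone, beside 0.10 for all genes. Glrx, which encodes glutaredoxin and removes glutathione from proteins, was the 1 gene with an unadjusted p under 0.05. It was at 39.8, 52.1 and 38.4 CPM in FOXA2f/f and at 48.9, 61.1 and 68.0 CPM in FOXA2H-KO, with FOXA2H-KO replicate 1 below FOXA2f/f replicate 2 (log2 fold change 0.45 ± 0.18, unadjusted p = 0.0357, adjusted p = 0.918). Gpx1, the main glutathione peroxidase of the cytosol, had a log2 fold change of −0.21, and of −0.0438 without FOXA2f/f replicate 2. The 9 genes for the removal of superoxide and peroxide, which include Gpx1 and Gpx4, had a median of −0.18, with 1 above 0 (Gpx3, 0.35) and 8 below, among them Ccs, the copper chaperone of superoxide dismutase, at −0.18 without overlap. None of these 9 had an unadjusted p under 0.05. Without FOXA2f/f replicate 2 the direction of the list turned, with 5 above 0, 4 below and a median of 0.0119, and Gpx3 was at 0.069. Without FOXA2f/f replicate 4 the median of the list was −0.22.

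For the thioredoxin and peroxiredoxin system, 3 of 12 genes lay above 0 and 9 below, with a median of −0.19 and 0 at an unadjusted p under 0.05. Besides Txnrd1, the mitochondrial reductase Txnrd2 was at 14.1, 17.0 and 14.5 CPM in FOXA2f/f and at 14.0, 10.9 and 11.3 CPM in FOXA2H-KO, without overlap (log2 fold change −0.33, unadjusted p = 0.0875). Its substrate Txn2 had a log2 fold change of −0.34 (unadjusted p = 0.0913), with overlap, and of −0.19 without FOXA2f/f replicate 2. By library the median deviation of the list was highest in FOXA2f/f replicate 2 (0.36, log2), and between −0.17 and 0.06 in the other 5. Without that library the median log2 fold change of the list was −0.0552. Without FOXA2f/f replicate 4 it was −0.35, with 4 of the 12 genes (33.3%) at an unadjusted p under 0.05, beside 16.6% of all genes.

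The 8 tested genes of NADPH supply, G6pdx among them, were all below 0, with a median of −0.37, and 1 had an unadjusted p under 0.05. That gene was Me1, which encodes malic enzyme, at 45.3, 338.3 and 65.0 CPM in FOXA2f/f and at 58.8, 41.0 and 32.97 CPM in FOXA2H-KO. Its counts are uncertain, since 12.3% of its 100-base stretches are shared with Gm7049 and Gm7329. FOXA2f/f replicate 2 alone was far above the rest: the log2 fold change was −1.75 ± 0.72 (unadjusted p = 0.0411, adjusted p = 0.941), and without that library −0.32 (unadjusted p = 0.261). The same library was the highest for Tkt (log2 fold change −0.51, and −0.0499 without it) of the pentose phosphate pathway and for Idh1, the cytosolic isocitrate dehydrogenase. Idh1 was at 324.6, 490.2 and 285.7 CPM in FOXA2f/f and at 265.6, 268.6 and 247.7 CPM in FOXA2H-KO, without overlap (log2 fold change −0.49, unadjusted p = 0.0565, and −0.23 without FOXA2f/f replicate 2, unadjusted p = 0.155). Without FOXA2f/f replicate 2 the median of the 8 genes was −0.09, and without FOXA2f/f replicate 4 it was −0.53.

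In the list of NRF2 targets for detoxification, heme and iron, which holds Nqo1 and Hmox1, 6 of 28 genes lay above 0 and 22 below, with a median of −0.21 and 4 at an unadjusted p under 0.05, all lower in FOXA2H-KO. Gstm4, a glutathione S-transferase, was at 44.9, 71.3 and 44.1 CPM in FOXA2f/f and at 33.2, 35.6 and 24.7 CPM in FOXA2H-KO, without overlap (log2 fold change −0.78 ± 0.23, unadjusted p = 0.0105, adjusted p = 0.762, and −0.51 without FOXA2f/f replicate 2). Htatip2 had a log2 fold change of −0.59 (unadjusted p = 0.0355), which was −0.36 without FOXA2f/f replicate 2 (unadjusted p = 0.11). Cyp2a5, a liver cytochrome P450, was at 34.5, 42.4 and 59.1 CPM in FOXA2f/f and at 20.3, 19.9 and 1.94 CPM in FOXA2H-KO (log2 fold change −1.68 ± 0.69, unadjusted p = 0.0408, adjusted p = 0.941). The groups of Cyp2a5 did not overlap, and FOXA2H-KO replicate 4 was by far the lowest. The log2 fold change was −1.16 without that library (unadjusted p = 0.00276) and −1.73 without FOXA2f/f replicate 2. Of the 100-base stretches of Cyp2a5, 12.1% are shared with Cyp2a4 and Cyp2a21-ps, so that its counts are uncertain. The median of the list was −0.14 without FOXA2f/f replicate 2 and −0.03 without FOXA2H-KO replicate 4. It was −0.32 without FOXA2f/f replicate 4, and also without FOXA2H-KO replicate 1.

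**Figure D5:**
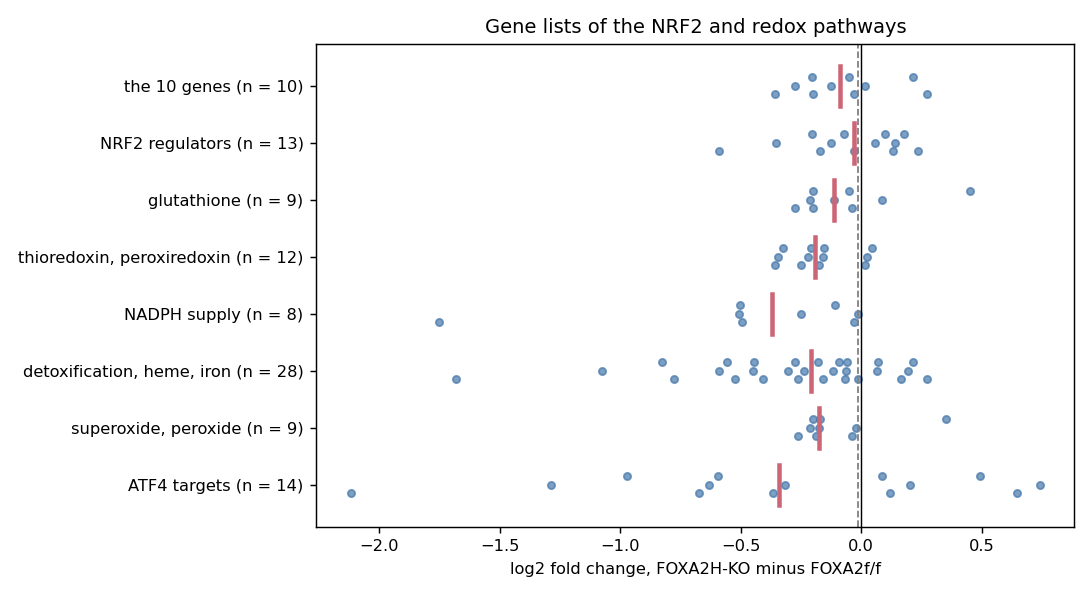
Fitted log2 fold change (FOXA2H-KO minus FOXA2f/f) of each tested gene (points, spread vertically for visibility) in the 10 NRF2-driven genes and 7 lists, those of the pathway and the targets of the stress factor ATF4, with the median of each list as a red bar and that of all genes tested (−0.01) as a dashed line. The medians lie between −0.37 for NADPH supply and −0.03 for the NRF2 regulators, and no point passed the threshold at an adjusted p under 0.05.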

How the data were processed

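RNA-seq of primary mouse hepatocytes was analysed from 6 libraries made with a paired-end TruSeq RNA kit. For each library the authors deposited whole-number counts per Ensembl gene, without normalization, and FPKM values, which follow from the counts, the total count and 1 length per gene. The submitters' processing notes name CASAVA 1.8, TopHat2 2.1.0, HTSeq, edgeR and mm10, and the gene annotation and the strand setting of the counting are not given in the sources used here. A symbol was paired with 34267 of 34745 genes. Groups followed the sample titles.

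The deposited counts were fitted with edgeR 4.0.16 under R 4.3.3 (TMM, filterByExpr, quasi-likelihood test, FOXA2H-KO against FOXA2f/f), and p-values were adjusted by Benjamini-Hochberg over the 14417 genes tested. A gene was called at an adjusted p under 0.05 and at least 2-fold, the thresholds of the study. The SE is the log2 fold change divided by the square root of F. The biological coefficient of variation was 25.3%. Single values were compared by exact permutation. The fit was tested on simulated data. DESeq2 1.42.0, edgeR's exact test, limma 3.58.1 on log2(FPKM + 1) and log2(FPKM + 0.1), other scalings and filters, a replicate block and leaving out each library were alternatives. Chi-square values per degree of freedom of 27.6 to 94.0 showed no duplicate libraries. Same-numbered libraries did not deviate together (r between −0.23 and 0.03).

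The genes and the lists were chosen with earlier results of these data known. Of each pathway list, the up to 3 genes with the smallest p were named, and of a cell type list its most abundant gene. Positions and exonic lengths are from GENCODE M21 (GRCm38).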

Additional observations from a re-analysis of the deposited data

How the results depend on the processing

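Under all 15 alternatives 0 of the 10 genes were called. The number of genes called over all those tested was 1 and became 73 with DESeq2, 64 with edgeR's exact test, 2 without a filter on low counts, 0 with library size alone, 0 with limma on either FPKM scale, 0 with the replicate block, and 0 to 6 with 1 library left out. Leaving out a library gave 0 to 3 of the 10 genes with an unadjusted p under 0.05 (1, Nqo1, without FOXA2f/f replicate 1, and 3, Hmox1, Gclm and Txnrd1, without FOXA2f/f replicate 4, when 16.6% of all genes had one) and 1 to 4 without overlap, and library size alone and the FPKM scales gave 0 without overlap. With 2 libraries in a group, no overlap is easier to reach. Its share over all genes was counted only with all 6 libraries in the main scaling, so these counts have no background beside them. The median of all genes was 0.10 (log2) with library size alone and 0.08 and 0.11 on log2(FPKM + 1) and log2(FPKM + 0.1). On these 3 scales, in this order, G6pdx turned to 0.0759, 0.0725 and 0.0919 and Gclc to 0.10, 0.0366 and 0.0364. With 1 library left out the sign also turned for G6pdx (−0.16 to 0.11), Gclc (−0.35 to 0.11), Hmox1 (−0.14 to 0.82), Slc7a11 (−0.72 to 0.34) and Srxn1 (−0.0704 to 0.12), and the cause was not tested. Nqo1, Gclm, Txnrd1, Nfe2l2 and Keap1 kept their sign with any 1 library left out. The replicate numbers are only names here, and the replicate block called 0 genes. The median of the 10 genes lay between −0.17 and 0.04. Slc7a11 was under the FPKM filter and could not be fitted there. With 3 libraries per group, a 2-fold difference lay inside the 95% interval of Hmox1 and of Slc7a11 in the main fit. The interval of Nqo1 also reached 2-fold with library size alone, without FOXA2f/f replicate 1 and without FOXA2H-KO replicate 4. That of Hmox1 stayed inside 2-fold without FOXA2f/f replicate 2.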

Other observations

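Slc7a11 is also a target of ATF4, the factor of the amino acid response, and 14 further ATF4 genes were read beside it. Of these, 6 lay above 0, up to 0.74, and 8 below. An unadjusted p under 0.05 was found for 2 (14.3%), beside 5.17% of all genes tested. Both were lower in FOXA2H-KO and without overlap, where 10.5% of all genes tested had none. Asns, the asparagine synthetase gene, was at 16.6, 10.03 and 4.58 CPM in FOXA2f/f and at 2.72, 2.25 and 2.17 CPM in FOXA2H-KO (log2 fold change −2.12 ± 0.44, adjusted p = 0.579 in edgeR's quasi-likelihood test and 0.00156 with DESeq2). Chac1, whose product degrades glutathione, was at 5.20, 3.51 and 5.98 CPM in FOXA2f/f and at 1.95, 2.81 and 1.25 CPM in FOXA2H-KO (log2 fold change −1.29 ± 0.36, adjusted p = 0.693). Slc7a11 and Asns both had their highest value in FOXA2f/f replicate 1, but the groups overlapped for Slc7a11 only. Atf5 had a log2 fold change of −0.67 (unadjusted p = 0.0682), with overlap, and of −0.30 without FOXA2f/f replicate 2, the library that stood apart. The median of the 14 genes was −0.34, and −0.20 without that library. It moved further without FOXA2f/f replicate 1, to −0.05, and without FOXA2f/f replicate 4, to −0.60.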
